A study of Mus musculus with 51 samples.

Results

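*Olfr541* is an olfactory receptor (OR) gene, and the account here follows its reads through every pS6-IP library of an odor exposure series in mice. It was chosen from measured values, because it took more reads than any other OR in a single library of the 10 mM MTMT group. It is 1 of the 1117 OR genes in each count table. The series held 51 libraries, 1 per mouse, in 10 odor groups and 7 diluent control groups of 3 mice each. All mice were C57BL/6J, about 3 weeks old, of mixed sex and litter-matched. Each was habituated for 1 hr and then exposed for 1 hr to 10 μL of an odor or of diluent, which was water, or ethanol for MTMT and CPD. The odors were (methylthio)methanethiol (MTMT) at 10 mM and 100 μM, 2-sec-butyl-4,5-dihydrothiazole (SBT) at 0.01, 1 and 100%, 100% (E)-β-farnesene, 1% 2,5-dimethylpyrazine (2,5-DMP), 77% dehydro-exo-brevicomin (DHB), 1% β-caryophyllene and 100 mM cyclopentadecanone (CPD). A set of 3 controls served 100 μM MTMT, 2,5-DMP and (E)-β-farnesene together, and another served 1 and 100% SBT.

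Each mature olfactory sensory neuron expresses a single OR gene from a single allele, so that reads of an OR stand for the neurons that chose it. When an odor activates a neuron, its ribosomal protein S6 is phosphorylated, and immunoprecipitation of phosphorylated S6 (pS6-IP) from the whole olfactory mucosa enriches the RNA of neurons that were recently active. An OR whose neurons respond to the odor thus takes a larger share of the OR reads than in mice exposed to diluent. The libraries are bulk material, so that more neurons with an OR in the precipitate and more RNA of that OR per neuron cannot be told apart. The tables hold OR genes alone, and the tissue could not be checked against markers of other cell types.

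*Olfr541* (ENSMUSG00000057997) lies on the plus strand of mouse chromosome 7 at 140697267 to 140705606 of GRCm38. Its coding sequence is a single uninterrupted run within the last exon, from 140704253 to 140705188, and encodes 312 residues. The longest transcript has an upstream noncoding exon from 140697267 to 140697470. Of the ORs in the tables, 16 lie within 500 kb, and all are placed before *Olfr541* in chromosomal order, with no OR of the tables after it in that window. The nearest is *Olfr45*, whose annotated end is 422 bp from the start of *Olfr541*. In a global alignment of translated coding sequences, the 8 closest relatives of *Olfr541* among the 1107 ORs with a coding sequence were all cluster neighbours. *Olfr535* was the closest at 91.7% protein identity, followed by *Olfr61* at 91.3% and *Olfr60* at 90.7%, and *Olfr45* and *Olfr53* stood at 90.1% each. The next relative, *Olfr211* on chromosome 6, was at 68.6%.

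Because reads of near-identical ORs can be assigned to the wrong gene, a stretch of the coding sequence is shown for *Olfr541* and 3 of its relatives. It spans coding bases 615 to 817, chr7:140704867-140705069 on the plus strand of GRCm38. It was chosen to hold the 60 bases in which *Olfr541* differed most from its 8 close relatives, and then the longest run that *Olfr541* shared with any OR. Capitals in a relative mark bases that differ from *Olfr541*, and the *Olfr541* line has none.
Olfr541: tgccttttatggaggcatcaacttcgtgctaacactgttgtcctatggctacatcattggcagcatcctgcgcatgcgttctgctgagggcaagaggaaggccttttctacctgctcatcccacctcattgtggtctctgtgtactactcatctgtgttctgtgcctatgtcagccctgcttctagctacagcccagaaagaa
Olfr45: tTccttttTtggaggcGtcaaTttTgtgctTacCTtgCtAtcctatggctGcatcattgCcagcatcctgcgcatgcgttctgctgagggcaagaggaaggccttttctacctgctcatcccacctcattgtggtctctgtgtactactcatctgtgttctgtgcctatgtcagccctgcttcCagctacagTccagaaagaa
Olfr53: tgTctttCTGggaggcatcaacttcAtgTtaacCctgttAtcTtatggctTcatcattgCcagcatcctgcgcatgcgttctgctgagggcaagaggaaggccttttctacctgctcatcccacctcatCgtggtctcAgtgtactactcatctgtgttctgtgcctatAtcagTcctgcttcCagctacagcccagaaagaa
Olfr535: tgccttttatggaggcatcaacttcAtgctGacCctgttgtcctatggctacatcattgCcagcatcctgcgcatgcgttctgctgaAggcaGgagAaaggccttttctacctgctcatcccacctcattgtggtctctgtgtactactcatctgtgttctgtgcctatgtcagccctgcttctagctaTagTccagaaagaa
Within the first 60 bases *Olfr541* differed from *Olfr45* at 12 positions, from *Olfr53* at 11 and from *Olfr535* at 4. The run that followed was identical to *Olfr45* over 123 bases, from coding base 675 to 797. A read of 50 bases that fell wholly in that run could not tell *Olfr541* from *Olfr45*. Over all annotated exons, 178 of 1641 stretches of 50 bases in *Olfr541* also occurred in another gene (10.8%), and 64 of 1641 stretches of 75 bases did (3.90%). *Olfr45* shared 107 of the stretches of 50 bases, *Olfr535* 77, *Olfr539* 61, *Olfr46* 45 and *Olfr53* 25. The other stretches of 50 bases had no exact match in an annotated transcript of another gene. Matches with mismatches, and the genome outside annotated transcripts, were not searched.

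The 3 mice exposed to 10 mM MTMT differed widely in *Olfr541*. The replicate 1 library held 176 *Olfr541* reads, or 0.257% of its OR reads (95% Wilson interval 0.222 to 0.298%). The replicate 2 library held 106 reads, or 0.124% (0.103 to 0.151%). The replicate 3 library held 8911 reads, or 9.79% of 91033 OR reads (9.60 to 9.98%). Their controls held 98, 132 and 73 *Olfr541* reads, or 0.190, 0.187 and 0.145%. Replicate 3 alone stood apart, and replicates 1 and 2 lay on either side of the control range. The intervals cover counting error of the reads only, and not differences between mice. The reads carried no molecular identifiers, so that amplified copies were counted as separate reads and the intervals may be too narrow.

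In replicate 3 *Olfr541* ranked first among the 1117 ORs by reads. It also ranked first by reads per kb of all annotated exons, an approximate scale because the expressed transcripts can be shorter. In the other 50 libraries its rank by reads ran from 67 to 274, with a median of 131.5, and its rank per kb ran from 29 to 132. The share in replicate 3 was 53.2 times the median of the other 50 libraries (0.184%) and 35.6 times the highest of them (0.275%, replicate 1 of the controls for 1 and 100% SBT). That 1 library held 51.2% of all 17408 *Olfr541* reads in the series.

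**Figure D1:**
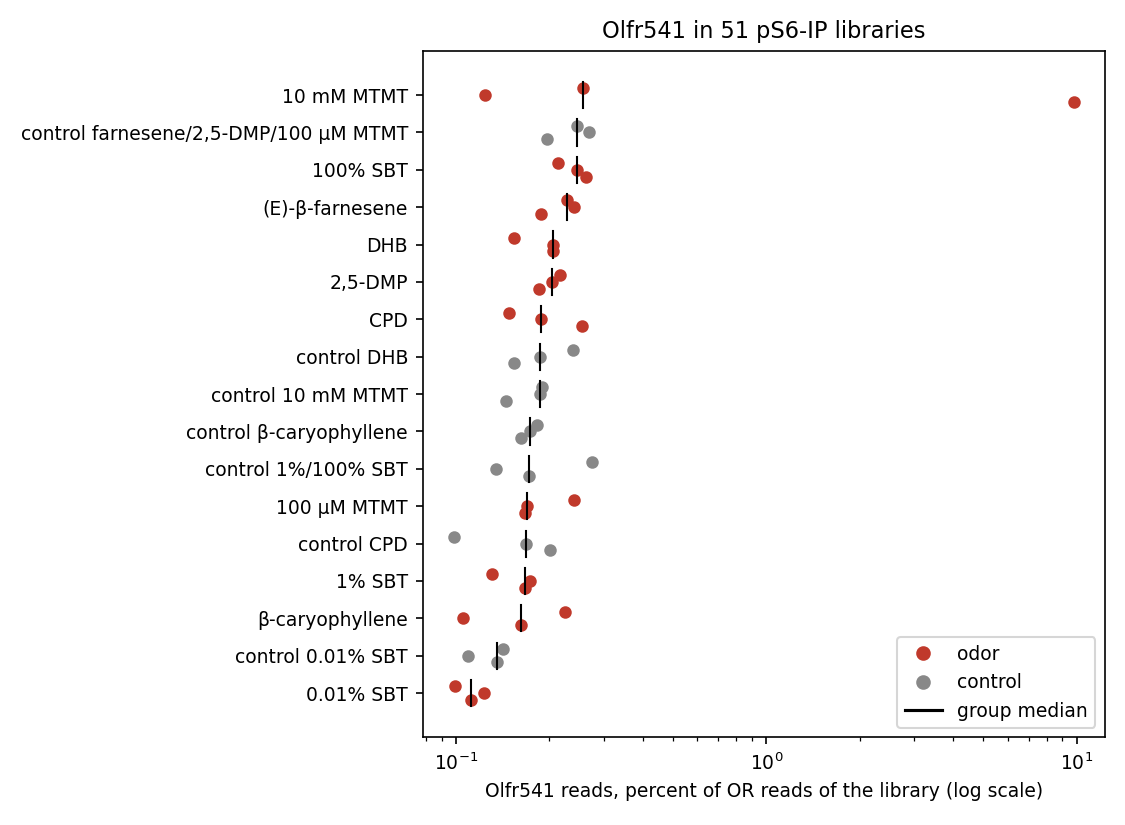
Share of OR reads taken by *Olfr541* in each of the 51 libraries (points, log axis), with odor groups in red, control groups in grey, and a line at each group's median; groups are ordered by median. The replicate 3 library of 10 mM MTMT lies at 9.79%, and the other 50 libraries lie between 0.0983 and 0.275%.

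Outside that library *Olfr541* held a moderate level, with more spread between libraries than counting error gives. Over the other 50 libraries the coefficient of variation of its share was 26.0%, where counting error alone would give 8.26%. The 21 control libraries ran from 0.0983 to 0.275% with a median of 0.173%, and the 29 other odor libraries ran from 0.0994 to 0.262% with a median of 0.188%. The control and odor libraries thus covered nearly the same range.

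After 100 μM MTMT, the lower dose of the same thiol, the libraries held 252, 189 and 182 *Olfr541* reads, or 0.240, 0.169 and 0.166%. Their controls, shared with (E)-β-farnesene and 2,5-DMP, held 154, 335 and 242 reads, or 0.246, 0.268 and 0.196%. MTMT was diluted in ethanol and 2,5-DMP in water, and which diluent these shared controls received is not given in the sources used here, so that diluent and odor cannot be told apart in at least 1 of the comparisons that use them. All 3 libraries of the lower dose lay below the highest control, and the ranges overlapped. After (E)-β-farnesene the reads were 271, 298 and 264, or 0.229, 0.240 and 0.188%. After 2,5-DMP they were 203, 234 and 276, or 0.216, 0.204 and 0.185%. Both groups lay within or beside the range of the same controls.

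CPD, a musk compound, gave 90, 275 and 260 *Olfr541* reads, or 0.148, 0.188 and 0.254%, and its controls gave 52, 106 and 139 reads, or 0.0983, 0.168 and 0.201%. DHB gave 129, 279 and 292 reads, or 0.154, 0.206 and 0.205%, against 152, 227 and 209 reads, or 0.238, 0.187 and 0.154%, in its controls. β-caryophyllene gave 177, 105 and 156 reads, or 0.225, 0.105 and 0.162%, against 161, 122 and 179 reads, or 0.183, 0.173 and 0.162%, in its controls. In each of these comparisons the ranges of odor and control libraries overlapped.

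SBT was tested at 3 doses. The 0.01% libraries held 159, 123 and 107 *Olfr541* reads, or 0.0994, 0.123 and 0.112%, and their controls 195, 110 and 106 reads, or 0.142, 0.109 and 0.136%. The 1% libraries held 54, 115 and 106 reads, or 0.130, 0.173 and 0.166%, and the 100% libraries held 174, 257 and 151 reads, or 0.213, 0.246 and 0.262%. The controls shared by those doses held 121, 77 and 47 reads, or 0.275, 0.135 and 0.172%. The 1% and 100% libraries did not overlap, and the shared controls spanned nearly both. The 0.01% SBT group and its controls had the lowest medians of all 17 groups, at 0.112 and 0.136%.

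Ordered by median share, the groups ran from 0.257% after 10 mM MTMT, through 0.246% in the controls shared by 100 μM MTMT, 2,5-DMP and (E)-β-farnesene, 0.246% after 100% SBT and 0.229% after (E)-β-farnesene, down to 0.112% after 0.01% SBT. Every group overlapped its neighbour in that order. With the median in place of the mean, the 10 mM MTMT group thus did not stand clear of the next.

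The fitted log2 fold change of *Olfr541* after 10 mM MTMT was 4.74 in edgeR over all 6 libraries. It was 0.34 without replicate 3 of the exposed mice, and between 4.60 and 5.31 with any of the other 5 libraries left out. It was 1.69 in a fit blocked on the replicate number, and the plain difference of the mean log2 shares was 1.96. The difference rested on the library that served to choose the gene, and no p is given for this contrast. For the 9 other comparisons, whose libraries did not serve to choose *Olfr541*, the quasi-likelihood test of edgeR was run over all ORs with at least 10 reads, with Benjamini-Hochberg adjustment over those ORs (threshold 0.05).

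*Olfr541* passed the threshold in none of these 9 comparisons. After 100 μM MTMT its log2 fold change was -0.34 ± 0.23 (SE, n = 3 against 3, edgeR adjusted p = 0.955). The largest was 0.69 ± 0.34 after 100% SBT (SE, n = 3 against 3, edgeR adjusted p = 0.280), with all 3 exposed libraries above the control mean. The others ran from -0.26 ± 0.23 after 2,5-DMP to 0.45 ± 0.37 after CPD, with edgeR adjusted p from 0.991 to 1.00. By exact two-sided permutation of the log2 shares the p-values ran from 0.2 to 0.9, and 3 against 3 libraries allow none below 0.1. The percentage of all ORs tested that passed the edgeR threshold was 0.281 after 100 μM MTMT, 1.77 after (E)-β-farnesene, 0.841 after 2,5-DMP, 0.564 after DHB, 0.466 after 0.01% SBT, 0.863 after 1% SBT, 11.4 after 100% SBT, and 0 after CPD, β-caryophyllene and 10 mM MTMT.

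The mouse in which *Olfr541* was high also had a further dominant OR. *Olfr1437*, an OR from a family known for responding to musk compounds, held 5724 reads in replicate 3 of 10 mM MTMT, or 6.29% of its OR reads. It held 350 reads (0.511%) in replicate 1 and 63 (0.0740%) in replicate 2, and 42, 32 and 23 reads (0.0814, 0.0452 and 0.0457%) in the controls. Its median over the other 50 libraries was 0.0464%, and the highest of them was replicate 1 of CPD at 0.721%. The study names CPD, another odor of this series, as an agonist for neurons that express *Olfr1437*. After CPD the log2 fold change of *Olfr1437* was 2.97 ± 0.70 (SE, n = 3 against 3, edgeR unadjusted p = 0.00122, edgeR adjusted p = 0.993). In that fit 0 of 1050 ORs passed the adjusted threshold. The study's own comparison, which was not used here, shows *Olfr1437* as enriched after CPD. Why it was high in a mouse labelled as exposed to MTMT was not tested. *Olfr541* and *Olfr1437* together took 16.1% of the OR reads of replicate 3 of 10 mM MTMT. They lie on different chromosomes, 7 and 19, and their proteins were 43.5% identical.

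The other leading ORs of the library were *Olfr1395* (1.78%), *Olfr224* (1.54%), *Olfr536* (1.41%), *Olfr140* (1.14%), *Olfr1396* (1.10%), *Olfr727* (1.05%), *Olfr531* (0.929%) and *Olfr330* (0.914%). *Olfr1395* and *Olfr224* were high in replicate 2 as well, at 2.28 and 1.55%, and not in replicate 1, at 0.266 and 0.124%. Their controls held 0.449, 0.578 and 0.413% of *Olfr1395* and 0.153, 0.147 and 0.223% of *Olfr224*. *Olfr1295*, the receptor the study names for MTMT, held 60, 361 and 447 reads in the 3 exposed mice, or 0.0876, 0.424 and 0.491%, against 47, 103 and 85 reads, or 0.0911, 0.146 and 0.169%, in the controls. Replicates 2 and 3 thus lay above each of their own controls in *Olfr1295*, *Olfr224* and *Olfr1395*, and replicate 1 lay below each of them in all 3. In *Olfr541* replicate 3 was high and replicates 1 and 2 were not. Over the other 50 libraries, *Olfr224* and *Olfr1395* were highest in replicate 2 of 10 mM MTMT. *Olfr1295* was highest in a library of another odor, CPD replicate 2 (0.432%), as were *Olfr1396* (1.25%) and *Olfr330* (1.75%). Why that CPD library was high in these ORs was not tested. After 100 μM MTMT *Olfr1295* held 0.202, 0.358 and 0.228%, against 0.0831, 0.0760 and 0.0826% in the controls. Its log2 fold change at that dose was 1.69 ± 0.26 (SE, n = 3 against 3, edgeR adjusted p = 0.00204). A single fit of all 51 libraries called 0 of 1102 ORs after 100 μM MTMT.

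**Figure D2:**
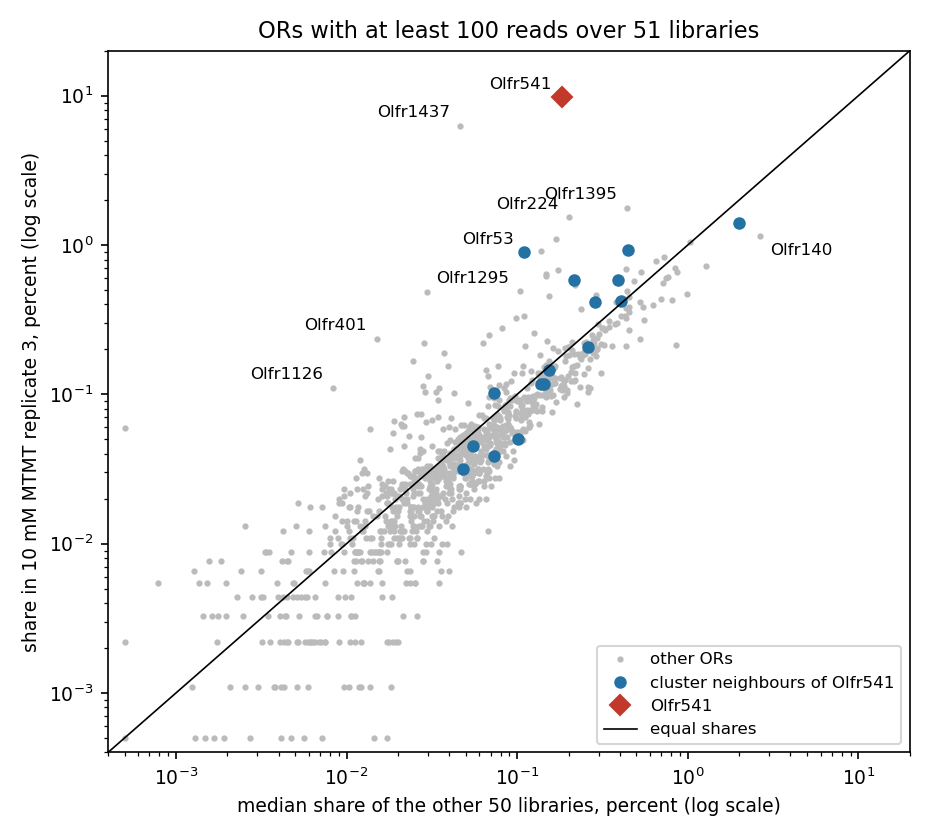
Share of each OR in replicate 3 of 10 mM MTMT against its median over the other 50 libraries, both on log axes, for the 1060 ORs with at least 100 reads; values below 0.0005% are drawn at 0.0005%. *Olfr541* (9.79 against 0.184%) and *Olfr1437* (6.29 against 0.0464%) lie far above the line of equal shares. Of the 1059 ORs other than *Olfr541*, 290 lie above it, *Olfr1437* among them.

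Most of the remaining ORs had a smaller share in this library than elsewhere. Of the 1059 ORs other than *Olfr541* with at least 100 reads, 290 lay above their median of the other libraries (27.4%). The median ratio was 0.769. The depth of the library was ordinary, at 91033 OR reads where the other 50 held 27301 to 160001. It took 60 ORs to reach 50% of its OR reads, fewer than in any other library (69 to 137). Of its 1117 ORs, 49 had no read, within the range of 32 to 147 in the others.

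An OR that is high in a single mouse was rare in these data. For each of the 1060 ORs with at least 100 reads, the highest share over the 51 libraries was divided by the second highest. The median ratio was 1.13, 25 ORs reached 2 and 7 reached 4. *Olfr541* had the second largest ratio, 35.6. The largest, 36.4, belonged to *Olfr545*, an OR of the class I group on chromosome 7, which held 5964 reads or 14.4% in replicate 1 of 1% SBT, 223 reads (0.336%) in replicate 2 and 24 (0.0377%) in replicate 3. Of the 7 ORs at 4 or more, 5 were highest in replicate 3 of 10 mM MTMT. Besides *Olfr541* and *Olfr1437* these were *Olfr401* (0.236%, ratio 6.69), *Olfr1126* (0.111%, 4.60) and *Olfr53* (0.900%, 4.43). The other, *Olfr544*, a receptor known for azelaic acid, was highest in the same 1% SBT library as *Olfr545*, at 1.54%. These ORs were picked by the ratio itself, which is given as a description.

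**Figure D3:**
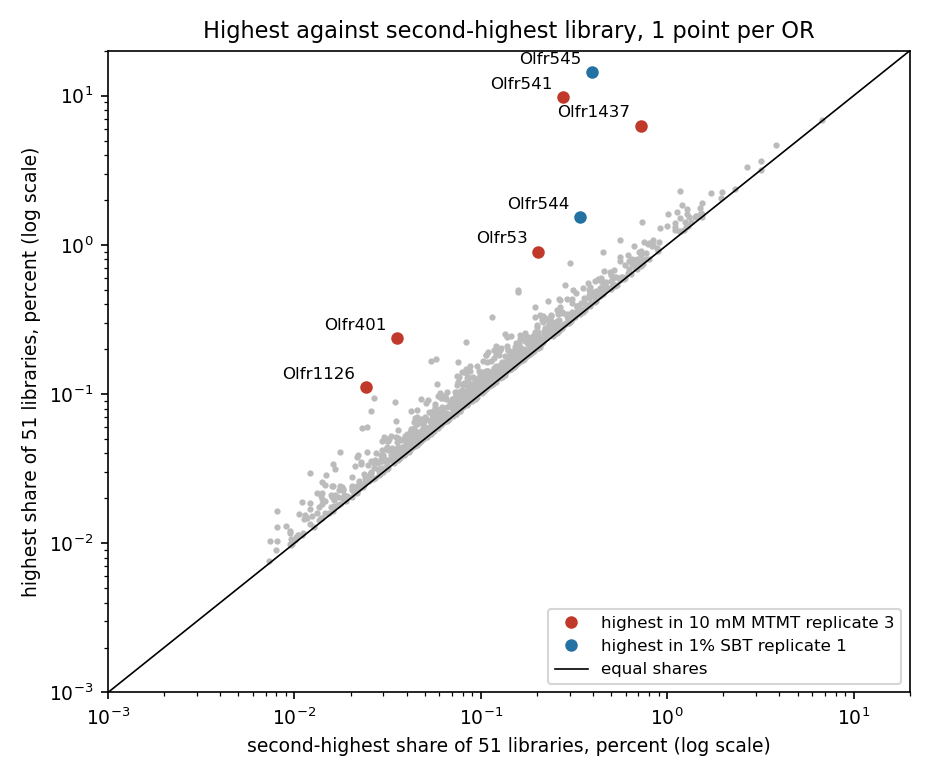
Highest share over the 51 libraries against the second-highest share, 1 point for each of 1060 ORs, both axes in percent of OR reads on a log scale. The 7 ORs at a ratio of 4 or more are named; those in red were highest in replicate 3 of 10 mM MTMT, those in blue in replicate 1 of 1% SBT, and the line marks equal shares.

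Only 4 ORs took 5% or more of the OR reads of any library. *Olfr541*, *Olfr545* and *Olfr1437* did so in 1 library each. *Olfr140*, with a median share of 2.61% over the 51 libraries, did so in 5. *Olfr140* was high throughout and *Olfr541* in a single mouse.

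The library labels open with a number that the replicate 3 library shared with its own control and with replicate 3 of CPD and its control. Their *Olfr541* shares were 0.145, 0.254 and 0.201%, all within the range of the remaining libraries. Replicates 1 and 2 of 10 mM MTMT, of CPD and of their controls shared another number. They include replicate 1 of 10 mM MTMT, low in *Olfr1295* (0.0876%), and replicate 2 of CPD, high in it (0.432%). What these numbers stand for is not given in the sources used here.

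Of the cluster neighbours, *Olfr53* moved most with *Olfr541* in replicate 3. It held 819 reads there, or 0.900%, against 56 (0.0818%) and 48 (0.0564%) in the other 10 mM MTMT mice and 31, 68 and 64 (0.0601, 0.0961 and 0.127%) in the controls. Its median over the other 50 libraries was 0.109% and the highest was 0.203%. *Olfr539* was also at its highest in replicate 3, with 529 reads (0.581%), but replicate 1 held 328 (0.479%) and the highest of the other 50 libraries was 0.558%. The remaining 14 neighbours lay within the range of the other 50 libraries.

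The 5 relatives that shared most stretches of 50 bases with *Olfr541* differed in their level in this library. *Olfr45*, with 107 shared stretches, held 93 reads (0.102%), 1.40 times its median. *Olfr535*, with 77, held 106 reads (0.116%), 0.848 times its median. *Olfr539*, with 61, stood at 2.71 times its median, *Olfr46*, with 45, at 0.811 times, and *Olfr53*, with 25, at 8.22 times. How many reads of one gene were assigned to another was not tested.

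**Figure D4:**
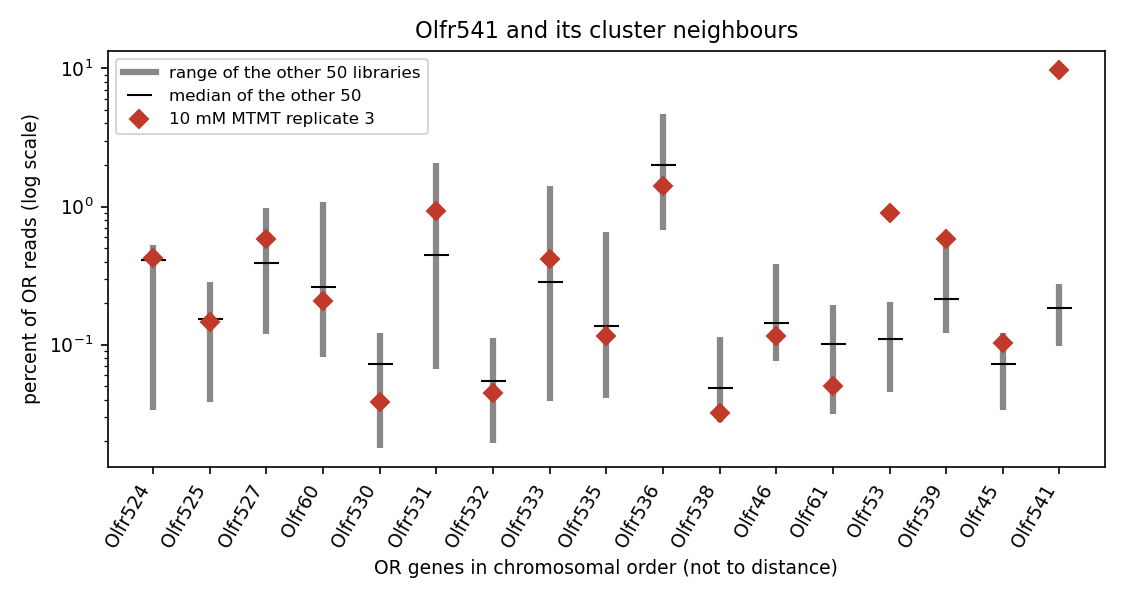
Share of OR reads (percent, log axis) for *Olfr541* and its 16 cluster neighbours in chromosomal order, with replicate 3 of 10 mM MTMT as a red diamond and the range and median of the other 50 libraries as a grey bar and black dash. *Olfr541* (9.79%), *Olfr53* (0.900%) and, narrowly, *Olfr539* (0.581%) lie above the grey bars, and the other 14 neighbours lie within them.

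Among the 1059 other ORs with at least 100 reads, 21 were at their highest in this library (1.98%), and 2 of the 16 neighbours were. Of the 16 neighbours 7 lay above their median of the other 50 libraries (43.8%, beside 27.4% of the other ORs). The summed share of the 16 neighbours was 6.10%, against a median of 4.98% and a range of 2.03 to 10.2% in the other 50 libraries. That of the 8 close relatives was 2.11%, against a median of 1.08% and a range of 0.758 to 2.53%. Both sums thus lay above the median and within the range of the other libraries. These values come from the library that served to choose *Olfr541* and are a description.

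The cluster did change after 100% SBT, in libraries that did not serve to choose *Olfr541*. Of the 16 neighbours, 9 rose and 0 fell past the edgeR threshold, which is 56.2% beside 10.7% of all ORs tested that rose. The 9 were *Olfr527*, *Olfr60*, *Olfr531*, *Olfr533*, *Olfr535*, *Olfr536*, *Olfr46*, *Olfr61* and *Olfr539*. The median log2 fold change of the 16 was 1.21, against -0.07 over all ORs tested. Of the 10 closest relatives 6 rose, 5 of them neighbours, and the sixth was *Olfr211* on chromosome 6 (1.21 ± 0.26, SE, n = 3 against 3, edgeR adjusted p = 0.00678). Without TMM scaling, which moved the median of all ORs to -0.47, 6 of the same 9 neighbours rose, beside 8.10% of all ORs, and of all calls 66.9% were higher in place of 93.3%.

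The largest change among the neighbours was that of *Olfr533*, which held 1.42, 1.09 and 1.35% after 100% SBT and 0.202, 0.248 and 0.429% in the controls (log2 fold change 2.55 ± 0.30, SE, n = 3 against 3, edgeR adjusted p = 1.39e-04). *Olfr535*, the closest relative of *Olfr541*, held 0.358, 0.654 and 0.492% against 0.0772, 0.112 and 0.165% (2.50 ± 0.36, edgeR adjusted p = 3.89e-04). *Olfr539* held 0.477, 0.510 and 0.558% against 0.150, 0.178 and 0.216% (1.90 ± 0.28, edgeR adjusted p = 5.22e-04). In each the exposed and control libraries did not overlap. *Olfr541* at 0.69 lay below the median of its neighbours, and *Olfr45* beside it had 0.30 ± 0.45 (edgeR adjusted p = 0.784). *Olfr53* had 1.12 ± 0.45 (edgeR adjusted p = 0.155). The neighbours among the close relatives of *Olfr541* share sequence with each other, so that the values of single members are uncertain.

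**Figure D5:**
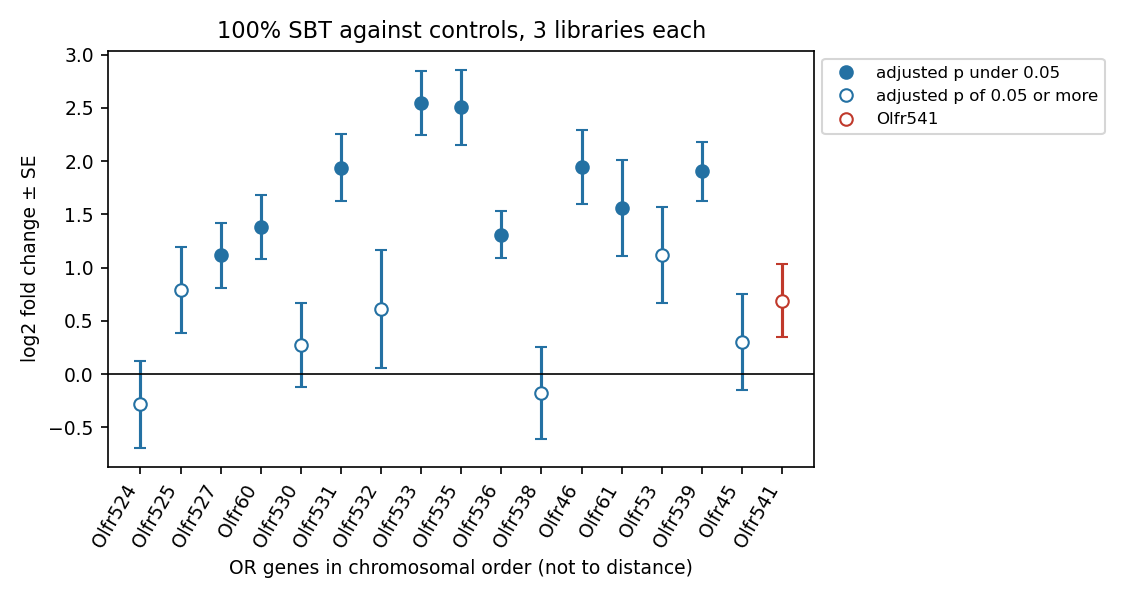
Log2 fold change (point) and its SE (bar) after 100% SBT against 3 controls for the 16 cluster neighbours and *Olfr541* in chromosomal order; filled points passed the edgeR threshold. The filled points run from 1.12 (*Olfr527*) to 2.55 (*Olfr533*), and *Olfr541* (red, open) lies at 0.69.

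After DHB, 2 of the 16 neighbours rose and 0 fell (12.5%, beside 0.564% of all ORs tested that rose). *Olfr46* held 0.265, 0.384 and 0.355% against 0.102, 0.156 and 0.154% in the controls (log2 fold change 1.36 ± 0.27, SE, n = 3 against 3, edgeR adjusted p = 0.0133). *Olfr531* held 0.919, 0.789 and 0.646% against 0.319, 0.346 and 0.408% (1.23 ± 0.27, edgeR adjusted p = 0.0333). Both passed without DHB replicate 3, and 1 or 0 of them passed when any of the other 5 libraries was left out. In the other comparisons, 10 mM MTMT among them, 0 of the 16 neighbours passed, and so did 0 of the 10 closest relatives.

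Over the 51 libraries the ORs whose share followed that of *Olfr541* most closely, among 924 with a median of at least 10 reads, were *Olfr45* (Spearman rho 0.54), *Olfr726* (0.52), *Olfr727* (0.48), *Olfr169* (0.46) and *Olfr53* (0.46). Without replicate 3 of 10 mM MTMT, the rho over 50 libraries were 0.52, 0.50, 0.49, 0.44 and 0.42, and these ORs ranked 1, 4, 7, 11 and 12. The median rho over the 924 ORs was -0.03. The points share libraries, controls and a common total of OR reads, and *Olfr45* shares sequence with *Olfr541*, so that the coefficients are descriptions.

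With or without the high library the ORs called after 10 mM MTMT were few. In edgeR 0 of 1054 ORs passed the threshold with all 6 libraries, 69 had an unadjusted p under 0.05, and DESeq2 called 15. Removal of the *Olfr541* row left the count at 0, and removal of replicate 3 left it at 0 of 1039, with 57 at an unadjusted p under 0.05. Without replicate 1, the mouse in which *Olfr1295* lay below every control, edgeR called 38 ORs, 37 of them higher. The lowest adjusted p without replicate 3 was 0.756, shared by 33 ORs. The 5 of them with the lowest unadjusted p were *Olfr1220*, *Olfr1437*, *Olfr330*, *Olfr325* and *Olfr328*, whose log2 fold changes were 2.77, 2.48, 2.99, 3.10 and 2.69. Most of these values rested on a single exposed mouse. *Olfr330*, *Olfr325* and *Olfr328* held 1.27, 0.784 and 1.53% in replicate 2. They lay within the control range in replicate 1, at 0.131, 0.0701 and 0.155%. *Olfr1437* held 0.511% in replicate 1 and lay within the control range in replicate 2, at 0.0740%. *Olfr1220* lay above every control in both, at 0.0321 and 0.115%.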

How the data were processed

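Libraries were prepared by pS6-IP from whole olfactory mucosa, 1 mouse each, and sequenced as single reads of 50 or 75 bases. The deposited tables hold expected counts of reads per OR gene, which the authors made with STAR alignment to GRCm38.p6 and RSEM, with the gene model of *Olfr290* removed; the counts are whole numbers and were not normalized. Versions of STAR and RSEM are not given in the sources used here. A read that fits several ORs is divided between them by estimation. The tables also hold the authors' own comparisons (fold changes, mean levels, test statistics and p-values), which were not used. A further table, for 2-heptanone, has 6 columns of counts that match no sample label and was not used. OR reads per library ran from 27301 to 160001. In 51 pairs of replicates, 0 were identical, and the chi-square per degree of freedom was 5.22 or more.

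Shares are percent of the OR reads of a library. Each odor was compared with its own controls by the quasi-likelihood test of edgeR 4.0.16 in R 4.3.3 (at least 10 reads over 6 libraries, TMM factors over ORs, Benjamini-Hochberg adjustment over all ORs tested, threshold 0.05). The test was also run on simulated counts, with changes drawn in both directions and no library made to stand apart. That run did not cover data with a single outlying library or with changes mostly in one direction. SE was taken from the log2 fold change and its F statistic. The groups are separate mice, and sequencing runs and litters of single libraries were not known. Where every same-numbered pair of odor and control libraries deviated together (correlation above 0.1 in CPD, β-caryophyllene, 2,5-DMP, DHB, 1% SBT and 100% SBT, lowest 0.109), the numbers were taken as pairs, from the data and not from the labels. The main fits and the permutation tests did not use the pairs. The pairing entered only through the replicate block, which was an alternative in every comparison. Protein identity came from global alignment (biopython 1.88) of translated GENCODE M21 coding sequences, and all 1117 ORs matched that annotation by gene identifier.

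Genes named are *Olfr541*, the ORs within 500 kb, its 10 closest protein relatives, the 10 largest ORs of the library where it was highest, the 5 ORs with the highest Spearman correlation, every OR at 5% or more of a library, *Olfr1295*, and the 5 ORs with the lowest adjusted p after 10 mM MTMT without that library, where a tie of 33 ORs was broken by the unadjusted p. *Olfr401*, *Olfr1126* and *Olfr544* were named after their values were seen. The member and these lists were chosen with earlier results of these data known. Alternatives were a replicate block, DESeq2 1.42.0, library totals, no filter on low counts, each library left out, a single fit of 51 libraries, an exact permutation test with a pseudocount of 5 reads per 100000 OR reads, and other scalings of the share. The test of 100% against 1 and 0.01% SBT, the alternatives for the counts of neighbours, and the single fit of 51 libraries for 10 mM MTMT were chosen after seeing the data.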

Additional observations from a re-analysis of the deposited data

Results flagged for a closer look

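The SBT doses differed in the direction of *Olfr541*, which drew attention because every library of one dose lay above the mean of its controls and every library of another lay below. All 3 libraries of 100% SBT lay above their control mean of 0.194%, and all 3 of 1% SBT lay below the same mean. The direction at 1% rested on control replicate 1 (0.275%). Without it the control mean was 0.153%, 2 of the 3 libraries of 1% SBT lay above it, and the log2 fold change of *Olfr541* at 1% turned from -0.19 to 0.17. In an edgeR fit of these 9 libraries, *Olfr541* was 0.91 ± 0.35 higher on the log2 scale at 100% than at 1% (SE, n = 3 against 3, edgeR adjusted p = 0.166, unadjusted p = 0.0180). All 3 libraries of 0.01% SBT lay below their own control mean of 0.129%. The change at 100% exceeded the change at 0.01% by 0.93 ± 0.44 on the log2 scale (SE, 12 libraries, edgeR adjusted p = 0.270). Both differences failed the adjusted threshold, and both doses above 0.01% share their controls. Both contrasts were chosen after the data were seen, so that their p-values are descriptions.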

How the results depend on the processing

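With CPM scaled by TMM over 51 libraries, the high library stood 67.6 times above the median of the others, in place of 53.2. After 10 mM MTMT the log2 fold change of *Olfr541* ran from 0.34 (without exposed replicate 3) to 5.31 with 1 library left out. ORs called after 10 mM MTMT, 0 in edgeR, were 15 in DESeq2, which gave no adjusted p for 496 ORs, and 29 in a single fit of 51 libraries. They ran from 0 to 38 (without exposed replicate 1) with 1 library left out. The cause of these differences was not tested. In the 9 other exposures, 0 of 108 alternative values of *Olfr541* passed the threshold and 13 lay on the other side of 0. These were β-caryophyllene in DESeq2 (0.02), in the single fit (0.04) and between -0.29 and 0.23 with 1 library left out, (E)-β-farnesene between -0.20 and 0.05, 1% SBT between -0.40 and 0.17 (the latter without control replicate 1), and DHB without TMM (-0.03), in the exact permutation test (-0.02) and between -0.08 and 0.20. The lowest adjusted p was 0.0614, for 100% SBT without control replicate 1 (log2 fold change 1.08). Cluster neighbours called after 100% SBT ran from 7 to 9 of 16 with 1 library left out, and those after DHB from 0 to 2 of 16, and 1 in the single fit.

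With the replicate number as a block, the log2 fold change after 10 mM MTMT was 1.69, and that of *Olfr541* after 100% SBT was 0.76 (edgeR adjusted p = 0.146). The block changed no call of *Olfr541*, and 10 neighbours were called after 100% SBT. Same-numbered libraries of 10 mM MTMT, (E)-β-farnesene, 100 μM MTMT and 0.01% SBT did not all deviate together, and there the numbers were not taken as pairs. With 3 mice a group and 47 to 335 *Olfr541* reads in 50 libraries, small changes of its level could not be resolved.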
